A study of Mus musculus with 24 samples.

Results

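The AP-1 family was followed through the livers of 24 mice: 18 model mice of a steatohepatitis model, a fatty liver with inflammation, and 6 normal control mice. The genes were named by symbol, with earlier results of these data known, and all 10 were found among 78298 gene IDs: Fos, Fosb, Fosl1 and Fosl2 (the Fos side), Jun, Junb and Jund (the Jun side), and Atf3, Batf and Maff. Each mouse gave 1 RNA library of whole liver, and the labels put the 18 model mice in a single group. The labels used here do not give how steatohepatitis was induced, for how long, or the strain, sex, age and time of day at sampling. Nothing in the labels names a treatment, allele or diet that the groups share. Library totals were 40.7 ± 7.17 M counts in model mice and 38.7 ± 6.02 M in controls (SD, n = 18 and 6), between 31.6 M and 58.4 M in all. Levels are given as CPM, counts scaled to a common library size, with TMM factors that set most genes equal between libraries. The albumin gene Alb had 61861 ± 12336 CPM in model livers and 113726 ± 23984 CPM in controls, so both groups carried the defining hepatocyte transcript.

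AP-1 is a pair of bZIP proteins held together by a leucine zipper, in which a Fos protein always needs a Jun partner while Jun proteins can also pair with each other. The pair binds the TPA response element or, with ATF partners, the related cyclic AMP response element, and switches on genes of inflammation, matrix turnover and cell division. Fos, Fosb, Jun, Junb and Atf3 are immediate early genes, whose short-lived transcripts appear within minutes of a stimulus through MAP kinases. In the mouse, Jun is known for its part in liver regeneration and survival of hepatocytes.

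The 250 bases before the annotated start are shown for Fos, Junb, Jun and Atf3, because these genes formed the 3 pairs that varied together most closely among model mice. Windows are from RefSeq on GRCm38.p6, an older build than that of the counts, and capitals mark any match to a searched motif.
Fos, chr12:85473640-85473889, plus strand: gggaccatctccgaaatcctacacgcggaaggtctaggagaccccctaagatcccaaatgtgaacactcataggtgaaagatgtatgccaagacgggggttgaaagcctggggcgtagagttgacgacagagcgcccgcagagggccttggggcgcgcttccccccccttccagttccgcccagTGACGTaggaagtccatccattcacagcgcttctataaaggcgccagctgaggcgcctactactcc
Junb, chr8:84978749-84978998, minus strand: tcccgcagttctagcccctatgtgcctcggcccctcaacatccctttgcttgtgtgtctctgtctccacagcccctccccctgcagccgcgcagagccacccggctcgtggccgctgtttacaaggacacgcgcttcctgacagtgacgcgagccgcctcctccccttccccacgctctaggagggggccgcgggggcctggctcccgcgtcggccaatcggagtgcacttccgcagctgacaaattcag
Jun, chr4:95052223-95052472, minus strand: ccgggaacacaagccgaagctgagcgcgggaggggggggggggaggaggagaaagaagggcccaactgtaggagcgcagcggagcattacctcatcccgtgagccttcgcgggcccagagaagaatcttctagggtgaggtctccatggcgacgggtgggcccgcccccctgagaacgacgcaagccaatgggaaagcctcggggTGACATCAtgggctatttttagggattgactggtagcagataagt
Atf3, chr1:191183334-191183583, minus strand: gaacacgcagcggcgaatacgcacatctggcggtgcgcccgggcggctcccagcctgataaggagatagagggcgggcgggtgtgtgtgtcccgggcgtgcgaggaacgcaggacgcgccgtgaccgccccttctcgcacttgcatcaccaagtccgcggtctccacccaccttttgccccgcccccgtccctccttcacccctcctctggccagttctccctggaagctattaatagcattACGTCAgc
Letters were searched on both strands. The TPA response element TGACTCA was present in 4.46% of 32851 windows of the same length, the cyclic AMP type TGACNTCA in 7.49%, and the shorter core TGACGT, which overlaps it where N is G, in 6.47%. The Fos window held TGACGT starting 66 bases before the start, the Jun window held TGACATCA 45 bases before it, and the Atf3 window held the core on the other strand, ACGTCA, 8 bases before it. The Junb window held none of the 3 motifs. Windows were matched for 9 of 10 members (not Fosl1). Batf held TGACGT 98 bases before its start, and 2 of the 3 Maff windows held a match, TGACGTCA 29 bases and TGACATCA 45 bases before their starts. Fosb, Fosl2 and Jund held no match, and TGACTCA was in none of the 11 windows. The list of motifs was narrowed after a first search had been seen, so these matches are a description of letters only.

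The family split by member; positions given with each gene are on GRCm39. Fos, Fosb, Atf3, Batf and Maff were higher in model livers, by between 2.07-fold and 5.30-fold, while no difference was called for Fosl2, Jun, Junb and Jund. Of 9 members that passed the filter on low counts, 5 were called higher, 0 lower and 4 neither (quasi-likelihood F test in edgeR, p adjusted by Benjamini-Hochberg, threshold 0.05). Across all 17456 genes tested, 31.2% were called higher and 28.8% lower, and the median log2 fold change was 0.01. The filter asked for counts in at least the number of libraries of the smaller group, so scarce genes such as Fosb and Batf passed through the model libraries, and their count is a description. At an unadjusted p below 0.05, 0 members were lower, and DESeq2 also called 5 higher, beside 31.0% of all genes. In whole liver, fewer cells of a type and less RNA per cell cannot be told apart, so every level below is that of the tissue.

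**Figure D1:**
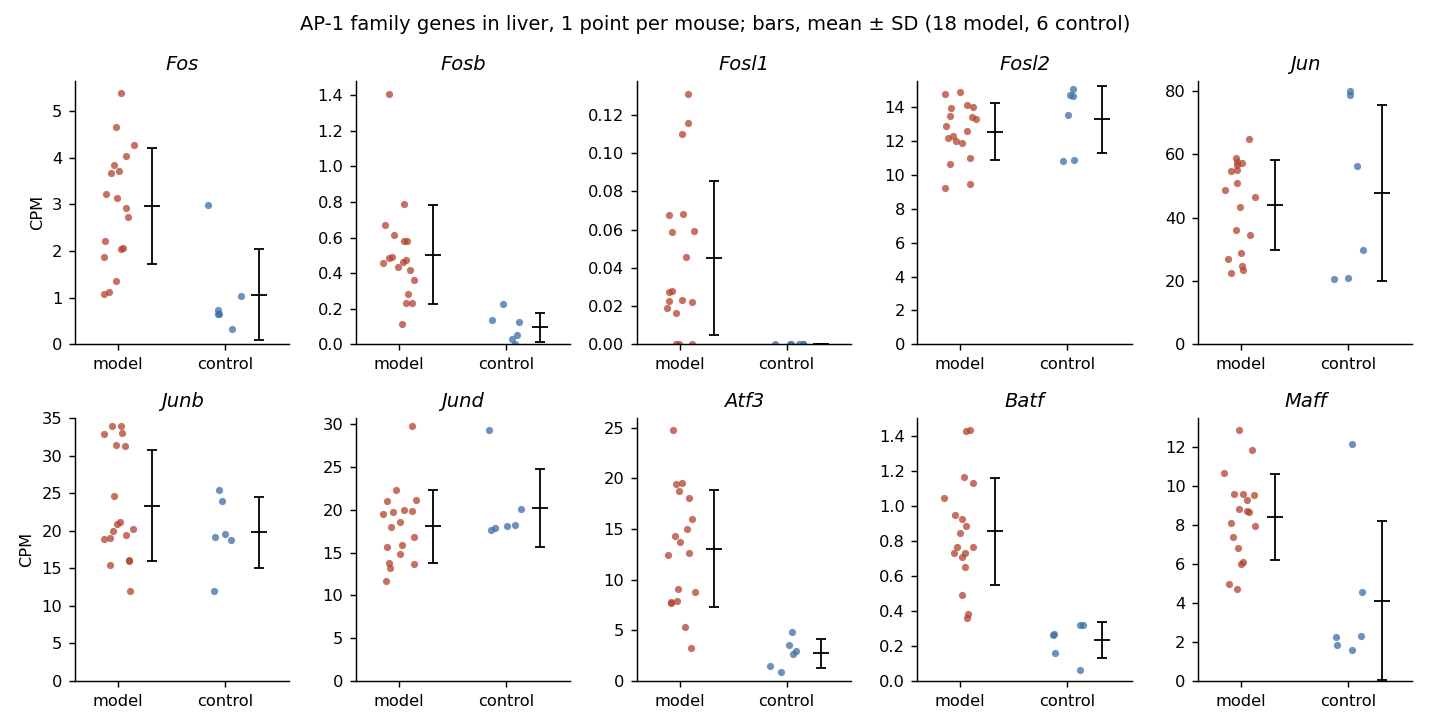
CPM of each of the 10 members in every mouse (y axis, linear, from 0; x axis, group). Points are mice, and bars are mean ± SD of 18 model and 6 control mice. Batf points of the 2 groups do not overlap, but the nearest are close, at 0.361 CPM (model) and 0.323 CPM (control). Points of Jun, Junb, Jund and Fosl2 lie over each other.

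On the Fos side, Fos (ENSMUSG00000021250, chr12:85520664-85524047, plus strand), the founding gene of the family, ran between 1.07 and 5.38 CPM in model mice with a median of 3.03, against 0.323 to 2.99 CPM with a median of 0.685 in controls. All 18 model mice lay above 5 of the 6 controls, but control 3, at 2.99 CPM, lay above 9 of the 18. The log2 fold change was 1.49 (SE 0.382, adjusted p = 0.00160), and without control 3 it was 2.14. Fosb (ENSMUSG00000003545, chr7:19036621-19043976, minus strand), whose spliced form deltaFosB accumulates under lasting stimulation in the brain, was far scarcer, at 0.111 to 1.41 CPM with a median of 0.468 in model mice and 0 to 0.225 CPM with a median of 0.0877 in controls. Apart from 1 model mouse, model 10, every model mouse lay above every control, and the log2 fold change was 2.41 (SE 0.477, adjusted p = 0.000103). These levels rest on 394 counts in the model libraries together and 18 in the controls.

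Fosl1 (ENSMUSG00000024912, chr19:5497575-5505974, plus strand), which encodes Fra-1, was close to undetected: 35 counts in 15 of 18 model libraries and 0 counts in the 6 control libraries. Set against a floor of 3 counts over the whole control group, the pooled level was at least 2.93-fold higher in model livers, and 0 counts in 1 library allow a level of up to between 0.0489 and 0.107 CPM. Fosl1 did not pass the filter; tested without any filter, where 14.4% of 43568 genes were called higher, it had an adjusted p of 0.00650 by edgeR. Its exons overlap those of Ccdc85b on the opposite strand, which had 8558 counts, and with the strand setting of the counting not stated the origin of the 35 counts is uncertain.

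Fosl2 (ENSMUSG00000029135, chr5:32293145-32315186, plus strand), which encodes Fra-2, was the Fos-side gene with the most counts and the steadiest. It ran between 9.21 and 14.9 CPM in model mice (median 12.8) and between 10.8 and 15.1 CPM in controls (median 14.1). Model and control ranges covered each other almost wholly. The log2 fold change was -0.08 (SE 0.094, adjusted p = 0.479), with an interval of 2 SE from -0.27 to 0.11.

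On the Jun side, Jun (ENSMUSG00000052684, chr4:94937271-94940459, minus strand), the most abundant member, ran between 22.5 and 64.9 CPM in model mice (median 47.7) and between 20.7 and 80.2 CPM in controls (median 43.1). Controls fell at either end: controls 1 and 2 lay below every model mouse at 20.9 and 20.7 CPM, controls 3 and 5 above every model mouse at 80.2 and 78.7 CPM. The log2 fold change was -0.12 (SE 0.272, adjusted p = 0.724), with an interval from -0.66 to 0.43, so changes within this range are not excluded. An antisense gene that shares exon sequence with Jun, Junos, had 1000 counts against 43504 for Jun.

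Junb (ENSMUSG00000052837, chr8:85701113-85705347, minus strand), which can restrain Jun in several settings, ran between 12.0 and 34.0 CPM in model mice (median 20.6) and between 11.9 and 25.4 CPM in controls (median 19.3). Only 6 of 18 model mice lay above every control. The log2 fold change was 0.24 (SE 0.198, adjusted p = 0.307), with an interval from -0.16 to 0.63. Exons of Junb and of Prdx2, a peroxiredoxin gene on the opposite strand with 126907 counts, overlap in the table, so part of the 22080 Junb counts could belong to Prdx2.

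Jund (ENSMUSG00000071076, chr8:71151599-71153265, plus strand), the Jun gene that most resting tissues express steadily, ran between 11.6 and 29.8 CPM in model mice (median 18.3) and between 17.6 and 29.3 CPM in controls (median 18.2). Control 5, at 29.3 CPM, stood apart from the other controls, which lay at 20.1 CPM or below, and 8 model mice lay below every control. The log2 fold change was -0.16 (SE 0.143, adjusted p = 0.341), with an interval from -0.45 to 0.12.

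The remaining members are bZIP partners outside the Fos and Jun sides. Atf3 (ENSMUSG00000026628, chr1:190902493-190950236, minus strand), a stress-induced factor that pairs with Jun proteins, ran between 3.25 and 24.8 CPM in model mice (median 13.2) and between 0.919 and 4.83 CPM in controls (median 2.78). Except for model 10, each of the model mice lay above every control, and the log2 fold change was 2.27 (SE 0.381, adjusted p = 1.65e-05). Batf (ENSMUSG00000034266, chr12:85733443-85755861, plus strand), a partner of Jun proteins best known in T and B lymphocytes and dendritic cells, was scarce but was the only member whose groups did not overlap, a pattern that 9.67% of all genes tested showed in this direction. It ran between 0.361 and 1.44 CPM in model mice (median 0.808) and between 0.0644 and 0.323 CPM in controls (median 0.267), and the log2 fold change was 1.86 (SE 0.307, adjusted p = 9.98e-06). The nearest mice of the groups, model 10 and control 2, had 13 Batf counts each, so the lack of overlap rests on library scaling. Batf had 670 counts in the model libraries together and 46 in the controls.

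Maff (ENSMUSG00000042622, chr15:79230821-79243276, plus strand), a small Maf protein without a transactivation domain, ran between 4.69 and 12.9 CPM in model mice (median 8.70) and between 1.56 and 12.1 CPM in controls (median 2.27). Here 1 control decided the overlap: 5 controls, at 4.57 CPM or below, lay under all 18 model mice, whereas control 6, at 12.1 CPM, lay above 17 of them. The log2 fold change was 1.05 (SE 0.315, adjusted p = 0.00592) with control 6 and 1.75 without it.

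Control 6 also stood apart from the other controls in some circadian clock genes that moved with the groups. Arntl, which encodes the clock activator BMAL1, had 2.38 to 4.79 CPM in model mice, against 15.9 to 32.4 CPM in controls 1 to 5 and 4.02 CPM in control 6. Dbp, an output gene of the clock, had 45.7 to 80.4 CPM in model mice, against 1.85 to 7.56 CPM in controls 1 to 5 and 40.5 CPM in control 6. In Nr1d1, control 6 stayed among the controls, at 25.1 CPM, against 70.0 to 112 CPM in model mice. Cry1 likewise had 13.9 CPM or more in all controls and 5.96 CPM or less in model mice. A clock index, the mean log2 CPM of Npas2, Clock and Arntl minus that of Dbp, Nr1d1, Per3 and Ciart, lay between -3.46 and -2.08 in model mice, between -0.57 and 2.08 in controls 1 to 5 and at -4.01 in control 6. Of 15 clock genes tested, 6 were higher, 4 lower and 5 not called, beside 31.2% higher and 28.8% lower over all genes. A fit that added this index called 3 members higher, beside 23.7% of all genes: Fosb by 1.71 (adjusted p = 0.0492), Atf3 by 1.51 (adjusted p = 0.0312) and Batf by 2.09 on the log2 scale (adjusted p = 0.00147). Jun had a log2 fold change of -0.93 there (SE 0.416, adjusted p = 0.0735), which was not called. There the log2 fold change of Maff was 0.00 (adjusted p = 0.996) and that of Fos 1.14 (SE 0.674, adjusted p = 0.177). Over all alternatives the adjusted p ran between 1.06e-06 and 0.996 for Maff and between 2.26e-05 and 0.177 for Fos. Because the index separates all controls but control 6 from the model mice, the clock and the model cannot be told apart for these genes.

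**Figure D2:**
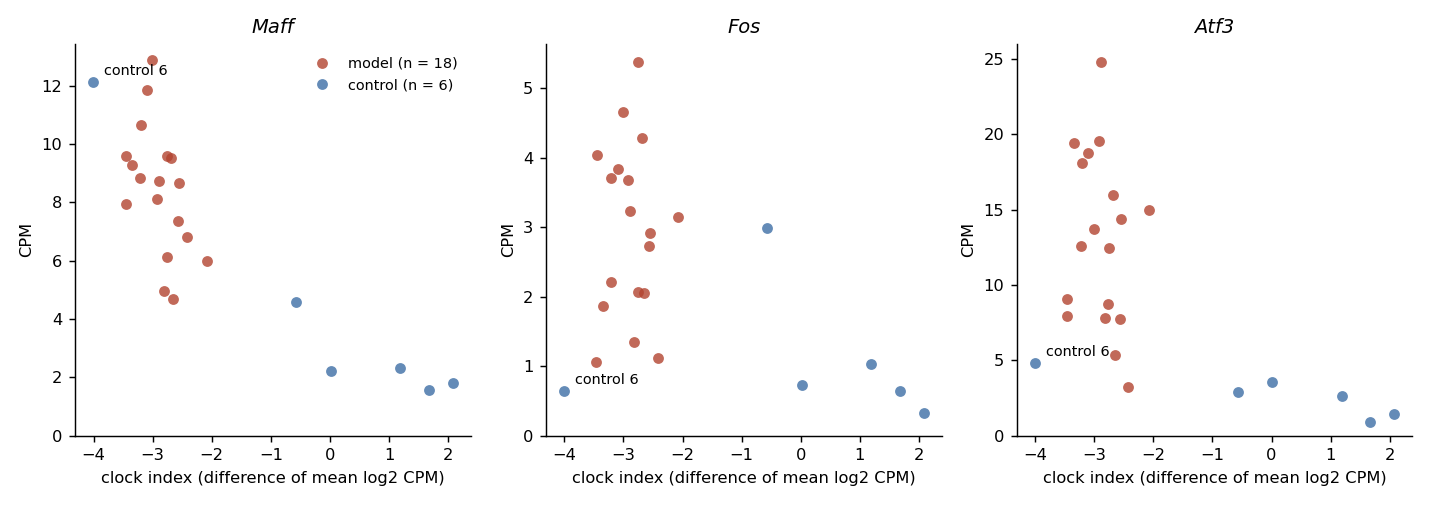
CPM of Maff, Fos and Atf3 (y axes, linear, from 0) against the clock index (x axis, log2 units) in 18 model and 6 control mice. Control 6 lies left of all model mice on the x axis, near the top for Maff at 12.1 CPM, below all model mice for Fos at 0.642 CPM and near the bottom for Atf3 at 4.83 CPM.

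The balance between the sides was compared per length, as CPM per kilobase of summed exons. Jun-side transcripts far outnumbered Fos-side transcripts in both groups: the 3 Jun genes summed to 34.8 ± 8.93 CPM per kb in model mice and 35.7 ± 12.5 in controls (SD, n = 18 and 6). The 4 Fos genes summed to 2.66 ± 0.683 CPM per kb in model mice and 1.84 ± 0.555 in controls. The Fos side thus made up 7.17 ± 1.09% of both sides in model mice and 5.06 ± 1.04% in controls. These values are a description over the members and carry no test.

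By level per kilobase, the order was Jun, Jund and Junb at the top, Atf3 and Maff next, then Fosl2, Fos and Batf, with Fosb and Fosl1 last in model mice. Jun averaged 13.8 ± 4.45 CPM per kb in model mice and 15.0 ± 8.71 in controls, Jund 10.8 ± 2.57 in model mice and 12.1 ± 2.73 in controls, and Junb 10.2 ± 3.20 in model mice and 8.61 ± 2.07 in controls. In model mice Jund and Junb differed by less than the SD of either, and Jun and Jund by less than the SD of Jun but more than that of Jund. Fos had 1.26 ± 0.532 CPM per kb in model mice, level with Fosl2 at 1.30 ± 0.172, whereas in controls Fos had 0.451 ± 0.414 and Fosl2 1.37 ± 0.203. Atf3 had 6.05 ± 2.68 CPM per kb in model mice and 1.26 ± 0.657 in controls.

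The log2 ratio of the Fos side to the Jun side averaged -3.71 ± 0.244 in model mice and -4.26 ± 0.332 in controls, a difference of 0.55, and 13 of 18 model mice lay above every control. The ratio of Fos alone to Jun alone separated the groups fully but narrowly: it ran between -4.25 and -2.92 in model mice and between -6.33 and -4.31 in controls, a mean difference of 1.69. The nearest mice were model 18 at -4.25 and control 3 at -4.31, and Fos in control 3 rests on 93 counts. Over all genes, the log2 ratio to Jun lay higher in every model mouse than in every control for 2.93%. Control 3, which had the highest Fos of the controls, also had the highest Jun, and so its ratio stayed below those of the model mice. Without Fosl2 the difference in the side ratio was 1.79, with 14 of 18 model mice above every control. Summed without division by length, where Fosl2 weighs most, it was 0.15.

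**Figure D3:**
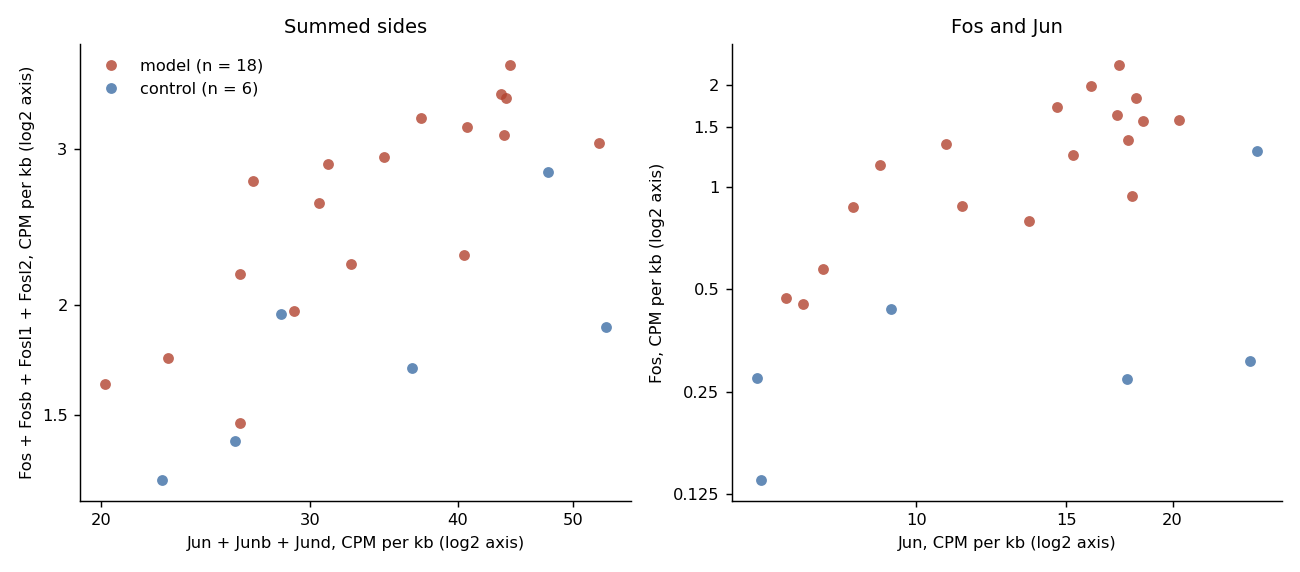
Left, summed Fos-side against summed Jun-side level in each mouse; right, Fos against Jun (CPM per kb of exon length, both axes log2). On the right all 18 model mice lie above the line of Fos-to-Jun ratios reached by any of the 6 controls, model 18 by little. Jun levels of the groups overlap.

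No member was called wider or narrower in its spread among model mice than among controls. The SD of log2 CPM was 0.683 in model mice and 1.01 in controls for Fos, 0.520 in model mice and 0.910 in controls for Jun, 0.747 in model mice and 0.856 in controls for Atf3, and 0.397 in model mice and 1.10 in controls for Maff. For Junb and Jund it was the larger in model mice, at 0.459 against 0.384 in controls for Junb and 0.329 against 0.283 in controls for Jund. Fosl2 was the least variable in both, at 0.201 in model mice and 0.222 in controls. Absolute deviations from the group median, tested with limma over all genes, gave 0 members with a wider and 0 with a narrower spread in model mice; of all genes, 0 and 0.172% were called so. At an unadjusted p below 0.05, Jun (p = 0.0354, adjusted p = 0.471) and Maff (p = 0.0225, adjusted p = 0.411) were narrower in model mice, as were 7.93% of all genes. On simulated data this form of the test did not call a wider spread in the larger group, so the missing calls in that direction say nothing. A form with square roots, chosen after seeing the data, also called 0 members and 0.418% of all genes.

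Among the 18 model mice, all 36 pairs of the 9 tested members had a positive Pearson r of log2 CPM, from 0.138 to 0.829 with a median of 0.524. Over all pairs of the 17456 tested genes the median r was -0.0058, 49.4% of pairs had an r above 0, and 7.88% reached 0.514, the lowest r of a member pair that passed. On the first principal component of all genes, with 33.1% of the variance, the widest gap was 26.1% of the range and set off model 10 alone; on the second, with 10.8%, it was 34.6% and set off model 3 alone. Whether the model mice hold subgroups was not tested, and the labels name none. After Benjamini-Hochberg adjustment over the 36 pairs, 21 passed by Pearson and 12 by Spearman correlation (two-sided permutation tests, 100000 resamples). Model 10, the lowest in Fosb, Jun, Junb, Atf3 and Batf, carried much of this: without it 9 pairs passed by Pearson correlation.

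Fos and Junb formed the closest pair, with r = 0.829 (permutation p = 2.00e-05, adjusted p = 0.000720) and rho = 0.843 (permutation p = 2.00e-05, adjusted p = 0.000720), and r = 0.870 without the 2 mice farthest from the median Fos level. Fos and Jun had r = 0.809 (permutation p = 6.00e-05, adjusted p = 0.000720) and rho = 0.721 (permutation p = 0.000980, adjusted p = 0.00706), with r = 0.687 without those mice. Jun and Atf3 had r = 0.812 (permutation p = 5.00e-05, adjusted p = 0.000720) and rho = 0.725 (permutation p = 0.000950, adjusted p = 0.00706), with r = 0.753 without the 2 mice farthest from the median Jun level. So Fos, called higher in model livers, and Junb and Jun, for which no difference was called, varied together within the model group. Models 2 to 8 held the 7 highest levels of both Fos and Junb. The permutation tests treat all model mice as exchangeable and take no account of such a block. Jund stood at the low end, and its r with Batf, 0.138, was the lowest of all (permutation p = 0.585, adjusted p = 0.585; rho = 0.168, permutation p = 0.5005, adjusted p = 0.515; r = 0.384 without the 2 farthest mice). Yet Jund passed by both measures with Junb (r = 0.592, adjusted permutation p = 0.0254, and rho = 0.690, adjusted permutation p = 0.0105). It also did with Jun (r = 0.515, adjusted permutation p = 0.0496, and rho = 0.591, adjusted permutation p = 0.0365). With Maff it passed by rank alone (rho = 0.564, adjusted permutation p = 0.0482), and with no other member by either measure.

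**Figure D4:**
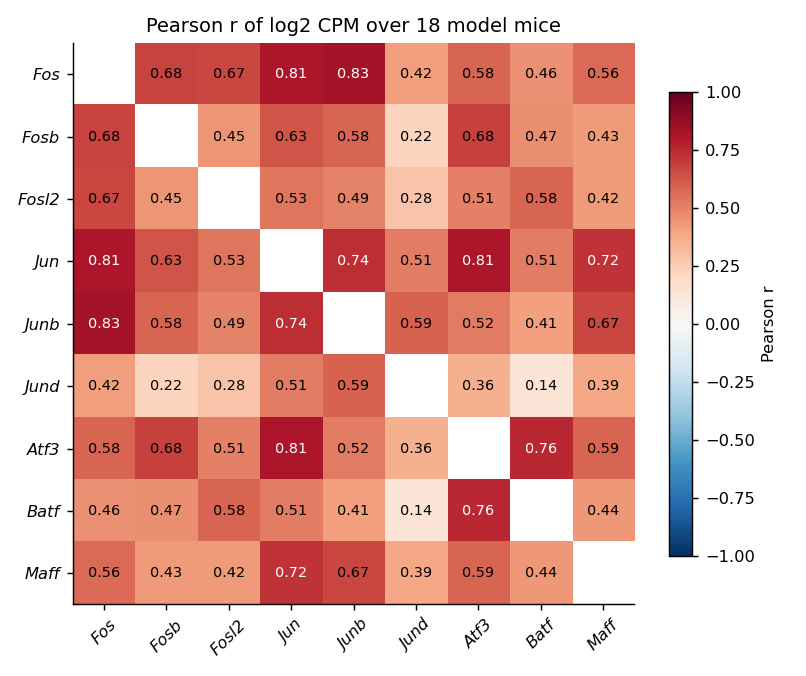
Pearson r of log2 CPM for each pair of the 9 tested members over 18 model mice (colour scale from -1 to 1, r printed in each cell). The highest values join Fos with Junb and Jun, and Jun with Atf3; the row of Jund is palest, down to 0.138 with Batf.

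Beyond the family, likeness was measured as the Pearson r of log2 CPM over the 18 model mice, among 11478 genes averaging 1 CPM or more, and is given as a description. Nearest to Fos were Dusp5, a phosphatase gene of the MAP kinase feedback (r = 0.855), Egr1 (0.853) and Btg2 (0.831), both immediate early genes. Nearest to Jun were Dusp5 (0.900), the chemokine gene Ccl9 (0.839) and Btg2 (0.837), and nearest to Junb were Gdf15 (0.866), Zfp36, which encodes an mRNA-destabilising protein (0.857), and Btg2 (0.831). Atf3 had other neighbours: Lgals3 (0.919), Lcn2 (0.919) and Plau (0.917), which encode galectin-3, lipocalin-2 and urokinase. Maff was nearest to B4galt5 (0.742), Prcp (0.726) and Jun (0.723). Fosl2 was nearest to Fscn1 (0.801), Tcof1 (0.789) and Thoc6 (0.772), and Jund to Zbtb8a (0.815), Fez2 (0.811) and Maz (0.801).

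Markers of most cell types moved with the groups. All 12 macrophage markers were higher, and their summed level was 129 to 780 CPM in model mice (median 376) and 21.7 to 50.8 CPM in controls (median 29.3), with none of the 12 at 0 counts throughout the controls. For T and NK cells 11 of 12 were higher, and the sum was 2.86 to 16.4 CPM in model mice (median 10.2) and 2.30 to 4.55 CPM in controls (median 2.99). Higher calls were also made for 6 of 7 B cell, 5 of 6 neutrophil, 9 of 10 stellate and 7 of 8 endothelial markers, beside 31.2% of all genes. Of 6 cholangiocyte markers 2 were higher, close to that share, and 4 were not called. All 8 hepatocyte markers were lower, beside 28.8% of all genes, at a median log2 fold change of -0.90.

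Over the 18 model mice, 27 relations between members and 3 of these sums were computed, a choice made after seeing the data. Each sum is a plain total of CPM, so its most abundant markers weigh most. Alb averaged 61861 CPM in model mice, where the hepatocyte sum had a median of 78624 CPM. Lyz2 averaged 147 CPM there, and the macrophage sum had a median of 376 CPM. By Pearson correlation 19 passed (8 of 9 with the macrophage, 6 with the T and NK cell and 5 with the hepatocyte sum), and by Spearman correlation 6 (4, 0 and 2). The share of all genes that would pass was not computed, so these counts are a description. Batf had the highest r, with the macrophage sum: r = 0.902 (permutation p = 1e-05, the smallest the resamples can give, adjusted p = 0.000270), rho = 0.827 (permutation p = 7.00e-05, adjusted p = 0.00189) and r = 0.845 without the 2 farthest mice. Of 17444 tested genes outside the macrophage list, 1.38% had an r with that sum at least as high as that of Batf, and 3.12% one as high as that of Atf3. For the lower r of Fos and of Jund, given below, the shares were 13% and 27.9%. Atf3 had r = 0.837 with the same sum (permutation p = 5.00e-05, adjusted p = 0.000675; rho = 0.699, permutation p = 0.00172, adjusted p = 0.0116; r = 0.670 without the 2 farthest). Fos had r = 0.580 with the macrophage sum (permutation p = 0.0116, adjusted p = 0.0305; rho = 0.513, permutation p = 0.0320, adjusted p = 0.0719; r = 0.413 without the 2 farthest). Jund had r = 0.275 (permutation p = 0.270, adjusted p = 0.281; rho = 0.373, permutation p = 0.130, adjusted p = 0.153; r = 0.575 without the 2 farthest).

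With the T and NK cell sum, Batf had r = 0.749 (permutation p = 0.000430, adjusted p = 0.00232; rho = 0.515, permutation p = 0.0300, adjusted p = 0.0719; r = 0.447 without the 2 farthest), and Atf3 r = 0.663 (permutation p = 0.00302, adjusted p = 0.0125; rho = 0.364, permutation p = 0.137, adjusted p = 0.154; r = 0.273 without the 2 farthest). Neither passed by rank. With the hepatocyte sum, Atf3 had r = -0.804 (permutation p = 0.000120, adjusted p = 0.00108; rho = -0.703, permutation p = 0.00158, adjusted p = 0.0116; r = -0.629 without the 2 farthest), and Batf r = -0.766 (permutation p = 0.000200, adjusted p = 0.00135; rho = -0.750, permutation p = 0.000610, adjusted p = 0.00823; r = -0.633 without the 2 farthest). What part these cells have in the levels of the members was not tested.

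Of the other bZIP factors, 7 of 16 were higher, 5 lower and 4 not called, beside 31.2% higher and 28.8% lower over all genes. Their median log2 fold change was -0.00, beside 0.01 for all genes. Relatives of Batf were higher as well: Batf3, needed for cross-presenting dendritic cells in the mouse, averaged 0.449 ± 0.107 CPM in model mice and 0.058 ± 0.0589 in controls (log2 fold change 2.83, SE 0.357, adjusted p = 1.91e-07). Batf2 averaged 0.633 ± 0.236 CPM in model mice and 0.130 ± 0.0784 in controls, and Jdp2, a repressor that pairs with Jun proteins, 1.32 ± 0.468 in model mice and 0.654 ± 0.260 in controls; both were called higher. Nfil3, a repressor under clock control, had 9.90 ± 1.92 CPM in model mice and 43.7 ± 8.38 in controls (log2 fold change -2.14, SE 0.118, adjusted p = 2.27e-13). Its level in all 18 model mice lay below every control, as for 6.02% of all genes. Cebpb was lower too, with a log2 fold change of -1.03, and 8 of the 18 model mice lay below every control. Atf4, of the integrated stress response, was lower (log2 fold change -0.27), while with library totals in place of TMM scaling its value was 0.066.

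Upstream, of 20 genes of the MAP kinase cascade and of the SRF and ELK factors, 6 were higher, 11 lower and 3 not called. Their median log2 fold change was -0.20, and over all genes 31.2% were higher and 28.8% lower. Map3k8, the kinase TPL2 of inflammatory signalling, had the largest increase, with 3.95 ± 0.890 CPM in model mice and 1.30 ± 0.298 in controls (log2 fold change 1.59, SE 0.169, adjusted p = 1.23e-08). Elk3 and Map3k14 were higher by 1.38 and 0.84 on the log2 scale. Map3k5, the stress kinase ASK1, had the largest decrease, with 29.2 ± 3.02 CPM in model mice and 51.9 ± 8.25 in controls, followed by Mapk14, which encodes p38 alpha (log2 fold change -0.65), and Map2k2 (-0.60). Transcript levels say nothing of whether a kinase was active.

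The feedback genes of the pathway, dual-specificity phosphatases and Sprouty proteins that switch MAP kinases off, were higher in 10 of 13 cases. Their median was 0.65, and 31.2% of all genes were higher. Spry4 averaged 7.45 ± 2.79 CPM in model mice and 2.51 ± 0.752 in controls, Dusp4 2.17 ± 0.670 in model mice and 0.783 ± 0.112 in controls, and Dusp6, the phosphatase of ERK, 62.8 ± 7.91 in model mice and 27.5 ± 8.76 in controls. Dusp1, which acts on p38 and JNK, went the other way. It had 15.8 ± 5.57 CPM in model mice and 46.1 ± 15.0 in controls, and every model mouse lay below every control, as for 6.02% of all genes (log2 fold change -1.55, SE 0.206, adjusted p = 6.11e-07).

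Other immediate early genes were split as well. Of 21, 12 were higher, 2 lower and 7 not called, beside 31.2% higher and 28.8% lower over all genes. Their median log2 fold change was 0.73. Egr2, a zinc finger factor, averaged 1.96 ± 0.730 CPM in model mice and 0.0772 ± 0.0631 in controls (log2 fold change 4.54, SE 0.437, adjusted p = 2.78e-09), and Egr3 and Klf6 were higher by 3.33 and 2.40 on the log2 scale. Yet Egr1, the relative of Egr2 that lay nearest to Fos among model mice, averaged 18.0 ± 8.79 CPM in model mice and 14.8 ± 9.48 in controls, a difference that was not called (adjusted p = 0.489). Zfp36, the most abundant of the list, was likewise not called, at 51.8 ± 12.2 CPM in model mice and 65.0 ± 23.5 in controls (log2 fold change between -0.71 and 0.01 over all alternatives). It was called lower without control 1 (-0.49, adjusted p = 0.0106) and with the clock index added (-0.71, adjusted p = 0.0493). Gadd45b, a stress gene, was lower at 4.88 ± 1.27 CPM in model mice and 15.5 ± 4.52 in controls (log2 fold change -1.67), and Ier2 was lower too (-0.45), a call lost with library totals (-0.11, adjusted p = 0.474) and with the replicate number as a block (-0.24, adjusted p = 0.144).

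Those genes known as AP-1 targets that were tested were higher almost throughout. Of 18, 15 passed the filter, and 14 of these were higher and 1 was lower, beside 31.2% and 28.8% of all genes. The median log2 fold change of the 15 was 3.39. Genes scarce in controls, such as Mmp13 and Timp1, passed through the model libraries. Il6 (0.0282 CPM in model mice, 0.0220 in controls), Mmp3 (0.148 and 0.0392) and Mmp10 (0 in both) did not pass. The list was written with earlier results known, so the count is a description. Mmp12, the macrophage elastase, averaged 50.1 ± 21.8 CPM in model mice and 0.0933 ± 0.0421 in controls (log2 fold change 9.04, SE 0.650, adjusted p = 5.95e-11). Mmp13, a collagenase, and Timp1, an inhibitor of such proteases, were higher by 6.54 and 5.84 on the log2 scale. For both, every model mouse lay above every control, as for 9.67% of all genes. Spp1, the most abundant of those called higher, had 184 ± 127 CPM in model mice and 47.5 ± 15.0 in controls, with 2 model mice below every control; with the clock index added its call was lost (log2 fold change 1.65, adjusted p = 0.113). Vegfa was lower (log2 fold change -0.18, adjusted p = 0.0411), a call lost when control 1, 2, 4 or 6 or model 1 was left out (log2 fold change between -0.18 and -0.13, adjusted p between 0.0534 and 0.151). It was also lost with upper-quartile factors (adjusted p = 0.344), no filter (0.114), a filter of 1 CPM (0.0928), the clock index (0.437) and the replicate block (0.0571), and with library totals the value was 0.15. Many of these genes are also made by the macrophages and stellate cells whose markers were higher, and Spp1 is itself on the cholangiocyte list; the part of AP-1 or of these cells in the targets was not tested.

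**Figure D5:**
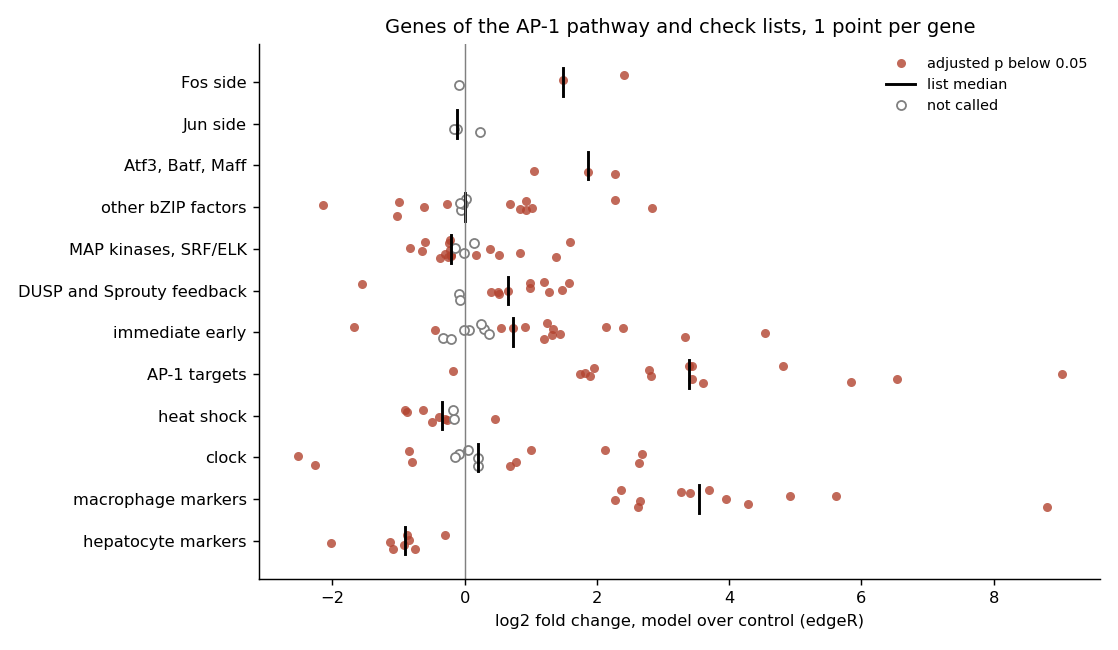
Log2 fold change of model over control (x axis, edgeR) for every tested gene of each list (y axis); filled points passed an adjusted p of 0.05, open ones did not, and black bars are list medians. The targets and macrophage markers lie furthest right, with medians of 3.39 and 3.55, while the Jun side straddles 0 and all hepatocyte markers lie left of it.

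Heat shock genes, which respond to handling and stress of tissue, were looked at as a check. Of 10, 1 was higher, 7 lower and 2 not called, with a median of -0.34, beside 31.2% higher and 28.8% lower over all genes. Hspa8, the constitutive chaperone, averaged 594 CPM (489.6 to 751) in model mice and 916 CPM (792 to 1102) in controls (log2 fold change -0.63, adjusted p = 2.86e-06). All 18 model mice lay below every control, as for 6.02% of all genes. Hsph1 had 36.3 ± 10.4 CPM in model mice and 66.4 ± 5.83 in controls, with 17 of 18 below every control (-0.87, adjusted p = 6.42e-05). Over all alternatives the highest adjusted p was 0.00434 for Hspa8 and 0.00917 for Hsph1. Hspa1b, an inducible chaperone, had 8.04 ± 5.29 CPM in model mice and 15.1 ± 7.92 in controls (adjusted p = 0.0282), a call lost without control 3 (log2 fold change -0.69, adjusted p = 0.116) or control 5 (-0.74, adjusted p = 0.0988). Whether handling bears on the levels of Fos, Jun or Junb was not tested.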

How the data were processed

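Liver RNA of 24 mice, with 1 library per mouse, was captured on oligo(dT) beads, copied into double-stranded DNA and sequenced as DNA nanoballs, per the labels' protocols. The authors deposited raw read counts per Ensembl gene, with exon positions and a summed exon length in bases (another unit, used only to divide CPM), per the file headers. The genome build was GRCm39, per the submitters' processing notes; for the aligner, counter, annotation release and strand setting the sources used here give nothing. Of 78298 IDs, 51498 matched a symbol and held 99.6% of counts; of several IDs under 1 symbol (58 symbols), that with the highest count was kept. Coordinates are those of the deposited table.

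Groups are as labelled. Counts were tested with edgeR 4.0.16 under R 4.3.3 (quasi-likelihood F test, robust, TMM factors, default expression filter, group alone, all 24 libraries), with Benjamini-Hochberg adjustment over 17456 genes and a threshold of 0.05. Each SE was obtained by dividing the size of the log2 fold change by the root of its F. Spread was tested with limma 3.58.1 on absolute deviations of log2 CPM (prior count 2). Correlations used Python 3.11.15 and numpy 2.4.6. Tests were checked on simulated data. No pair of libraries within a group agreed within sampling noise (168 pairs, smallest chi-square per degree of freedom 19.1). The labels name separate mice. Precision: 3 counts stand for 0.0514 to 0.0949 CPM by library totals, and such floors cover counting error only.

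The alternatives tried were upper-quartile and RLE factors, library totals, DESeq2 1.42.0, limma-voom, other filters, a threshold of 0.01, the clock index as covariate, leaving out the 20 most abundant and the mitochondrial genes, a block for the replicate number, and dropping each library in turn. The block compared only models 1 to 6 with the controls, as the other model mice share no number with a control. The square-root form of the spread test and the side ratio without control 3 or 6 were added after seeing the data.

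The members and all lists were chosen with earlier results of these data known. Genes named were all members; in each list up to 3 called genes with the highest and up to 3 with the lowest log2 fold change and the most abundant member; and for members with a mean of at least 1 CPM, the 3 genes nearest by correlation. Egr1, Btg2, Atf4 and genes of the clock index were named besides, after their values were seen, and not each gene under the rule is printed; 1 list gene that the rule names is not reported here.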

Additional observations from a re-analysis of the deposited data

Results flagged for a closer look

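In the 6 controls, 23 quantities (the 9 tested members and other levels and sums) were looked at for a mouse far from the others, by Dixon's criterion for a wide gap to the nearest mouse; chance gives about 1 such group in 20. It picked out 4. Fos in control 3, at 2.99 CPM, lay far above the other controls, which reached 1.03 CPM. Jund in control 5, at 29.3 CPM, lay far above the other controls, which reached 20.1 CPM. Maff in control 6, at 12.1 CPM, lay far above the other controls, which reached 4.57 CPM. Control 6 was also the control with Arntl within the range of model mice and Dbp nearest to it, but not Nr1d1 or Cry1. The summed level of neutrophil markers in control 2 was 6.26 CPM, far above those of the other controls. The mice concerned were 4 different controls, and what sets them apart was not tested.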

How the results depend on the processing

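Of the 5 members called higher, all 5 remained when any library was left out (5 to 5 higher, 0 to 0 lower), with RLE and upper-quartile factors, DESeq2 and limma-voom. With the clock index as covariate 3 members were called higher, Junb reversed to -0.059 and Tef to -0.44. A filter of 1 CPM in 6 libraries left 4 (Fosb was not tested), and no filter gave 6 with Fosl1. Library totals shifted the middle log2 fold change over all genes by 0.33: 9406 genes were then higher and 1562 lower, 9 pathway genes were lower, 33 member pairs were correlated, Fosl2 was 0.25, Jun 0.23, Jund 0.17, Atf4 0.066, Zfp36 0.011 and Vegfa 0.15, and 7 members were higher, Fosl2 (adjusted p = 0.0488) and Junb (0.58, adjusted p = 0.0184) being added. The adjusted p of Fosl2 ran between 0.0488 and 0.886 over its alternatives. That of Junb ran between 0.000243, with the replicate block, and 0.901. Fosl2 was 0.017 with upper-quartile factors, and Jun 0.029 with limma-voom, 0.087 without control 3 and 0.072 without control 5, in a range of -0.28 to 0.087 over all libraries left out.

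Replicate numbers did not pair the mice: same-numbered libraries had correlations of their deviations between -0.29 and 0.07, and 1 of 6 controls was closest to its own number. With the replicate block, models 7 to 18 had no control of the same number. The group difference there rested on models 1 to 6 and the 6 controls. Models 2 to 6 were among the 7 model mice with the highest Junb. In this fit 6 members were higher, Junb at 0.66 being added, beside 25.4% of all genes. Jun was 0.20, Jund 0.018, and 11 pathway genes were lower.

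Deviations from the group mean gave 1 member with a narrower spread, Maff (-0.61, adjusted p = 0.0334, in a range up to 0.946 over its alternatives, the highest without control 6), while 0 to 0 were called narrower and 0 to 0 wider when a library was left out. Differences in spread changed sign when a library was left out for Fos (-0.26 to 0.18, the last without control 3), Fosl2 (-0.048 to 0.024, positive without control 1 or 2), Atf3 (-0.20 to 0.12, the last without control 2) and Batf (-0.17 to 0.16, the last without control 3; 0.026 with square roots). The side difference was 0.15 without division by length and 1.07 as mean log2 CPM of members, and ran between 0.51 and 0.58 without a library. The r of Fosb and Jund was -0.043 without the 2 farthest mice, and that of Jund and Batf -0.028 without model 10, in a range up to 0.38. With a library left out, 9 to 22 pairs were correlated, 5198 to 5474 genes were higher and 4787 to 5175 lower, and 47 to 49 pathway genes were higher and 18 to 21 lower. The causes of these shifts were not tested, apart from fewer genes or samples where a filter or library was changed. Depth limits Fosl1, Fosb and Batf most, and with 6 controls the intervals of Jun, Junb and Jund do not exclude moderate changes.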

Other observations

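The same 7 model mice, models 2 to 8, held the 7 highest levels of both Fos and Junb. Fos ran between 3.67 and 5.38 CPM in these 7 and between 1.07 and 3.23 CPM in the other 11, and Junb between 24.6 and 34.0 CPM in the 7 and between 12.0 and 21.2 CPM in the other 11. Of 17456 genes tested, 4 had these 7 mice on top (0.0229%): Fos, Junb, Zfp36 and Zfp36l1, the last pair encoding proteins that destabilise mRNA. The 7 mice were those with the highest Fos, so Fos is among the 4 by definition. For Jun, Jund and Maff, 5 of the 7 were among the highest 7, for Fosl2 and Batf 4, and for Fosb and Atf3 3. The labels give no division of the model mice. The pattern was noticed after the values were seen and stands without a test.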
